A study of Mus musculus with 6 samples.

Results

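A set of 10 imprinted genes that lie outside the *Igf2*, *Kcnq1*, *Peg3* and *Dlk1* domains was examined in whole mouse embryos at E10.5. They were taken as a list of named genes, a choice made with earlier results of these data known though with no threshold on a measured value, and all 10 were found among the 55401 genes of the deposited count table. *Plagl1*, *Mest*, *Peg10*, *Sgce*, *Ndn*, *Magel2*, *Snrpn*, *Nnat* and *Impact* are expressed from the paternal allele. *Grb10* is the only one expressed mainly from the maternal allele, so a comparison of the paternal with the maternal class sets 9 genes against 1 gene. The 6 RNA-seq libraries fall into 3 of wild-type (WT) embryos and 3 of embryos labelled 5C, which carry 5 tandem *Mir483* copies inserted into *Igf2* itself. Per the study, chimeric males transmitted the array, controls were WT littermates, and the RNA of 2 male embryos was pooled for every library. Both genotypes thus share the embryonic day, the use of whole embryos and the pooled design, and no replicate is a single embryo. The study also reported that embryos with the array arrest in development, with growth restriction and then resorption at later days. Whether the genotypes had reached the same developmental stage at collection was not tested. The part of a delay or of reduced growth in the differences between genotypes was not tested either.

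In genomic imprinting, a mark set in the egg or the sperm silences one parental copy of a gene, so that only the other copy is transcribed in the embryo. Many paternally expressed genes promote fetal growth and many maternally expressed genes restrain it. PLAGL1, a zinc finger transcription factor, is known to act on a network of imprinted genes that includes *Igf2*, the host gene of *Mir483*. *Mir483* yields 2 mature microRNAs, and a microRNA recognizes mRNAs mainly through the seed at its 5′ end.

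The mature sequences are shown because their seeds define the letters that were searched for in the members. They come from RefSeq on GRCm38.p6, on the minus strand of chromosome 7 (142654932 to 142654952 for miR-483-3p and 142654968 to 142654989 for miR-483-5p), and capitals mark the seed, bases 2 to 8.
miR-483-3p: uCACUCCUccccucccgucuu
miR-483-5p: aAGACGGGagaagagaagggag
The mRNA letters that pair with these seeds are AGGAGTG and CCCGTCT, and they were searched on the sense strand of the 3′ UTR of the longest coding transcript of each gene. Among 13939 tested genes with a 3′ UTR, 13% held AGGAGTG and 3.61% held CCCGTCT. Of the 10 members, 1 held AGGAGTG and 0 held CCCGTCT. The member with the match was *Peg10*. The match is shown with capitals for the paired letters, on the plus strand of chromosome 6 in GRCm38, from 4759994 to 4760000.
*Peg10* 3′ UTR: tcagtgttAGGAGTGaattggac
The base after the match is A, the fuller form of a seed match. *Peg10* is read in 2 frames joined by a ribosomal frameshift, and the longest transcript is annotated with the early stop codon, which gave a 3′ UTR of 5166 bases. The match also lay in the 3′ UTR of both transcripts that carry the later stop codon, 2754 bases after it, where the 3′ UTR is 3274 or 3277 bases long. A match is a description of the letters and not evidence of binding. Shorter matches and sequence outside the 3′ UTR were not searched, so the lack of a match does not show that a member cannot be recognized.

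WT libraries held 6357343 to 19151368 counts and 5C libraries held 11628885 to 16291582 counts. Levels are given as CPM, the counts per 1e6 of a library total after TMM scaling (the trimmed mean of M values). In these poly(A)-selected libraries the *Mir483* gene stood at 0.577, 0.429 and 0.319 CPM in the WT libraries against 5.15, 4.35 and 2.56 CPM in the 5C libraries, so every library had the direction of its label. Markers of the neural tube (8 of 8), of somite and limb mesenchyme (6 of 6) and of primitive erythrocytes (4 of 4) had counts in all 6 libraries. Summed yolk sac markers, all 6 of them detected everywhere, ranged from 170.5 to 5801 CPM in WT and from 115 to 1101 CPM in 5C, with the highest value in WT replicate 1. Summed trophoblast markers, of which 1 of 5 had counts in every library, stayed between 0.256 and 6.19 CPM, and the trophoblast genes *Gcm1* and *Psg17* had 0 counts in some libraries of both genotypes. The Y-linked *Ddx3y* measured 0.944 CPM in WT replicate 2 and 0 CPM in 5C replicate 2, against 41.6 to 55.9 CPM in the other libraries, although the pools were described as male. In bulk embryos, fewer cells of a type and less RNA per cell cannot be told apart.

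All 10 members passed the filter on low counts, with 70 to 34630 counts per library. For levels per kilobase, exon length was the union of the exons of all annotated transcripts of a gene. The order between genes thus depends on the annotation as well as on expression. Compared per kilobase of exon, the 6 libraries together placed *Mest* highest, with a median of 425 CPM per kilobase. *Nnat* followed at 284, *Grb10* at 193, *Peg10* at 42.6 and *Ndn* at 30.4 CPM per kilobase. *Impact* at 21.7, *Plagl1* at 16.2, *Snrpn* at 11.6, *Sgce* at 4.73 and *Magel2* at 2.19 CPM per kilobase made up the lower part of the order. The ranges over libraries did not overlap between neighbours in this order except for *Impact* with *Plagl1* (18.5 to 23.4 against 13.8 to 21.1) and *Plagl1* with *Snrpn*, which reached 14.1. The level of *Snrpn* is uncertain, because 589 of its 2159 exon bases lie under exons of *Snurf* and *Gm38393* on the same strand. STAR's gene counting drops reads shared by 2 genes, and *Snurf*, all of whose 216 exon bases lie under other genes, had 0 counts in every library. *Gm38393*, which covers all 589 shared bases, averaged 59.3 CPM in WT and 76.3 CPM in 5C, above *Snrpn* itself, with 0.37 as its log2 fold change (unadjusted p = 0.0112). Its part in the level and the difference of *Snrpn* was not tested.

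**Figure D1:**
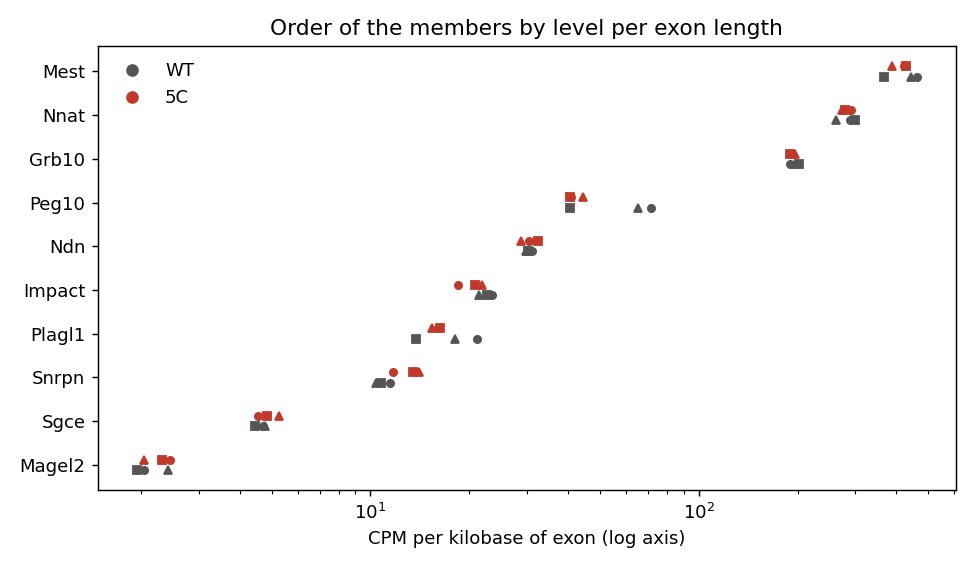
Level of each member in CPM per kilobase of exon on a log axis, one point per library, WT in grey and 5C in red, with circles, squares and triangles for replicates 1, 2 and 3. *Mest*, *Nnat* and *Grb10* lie at 189 or more in every library, and *Magel2* lies lowest at 1.95 to 2.45.

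The comparison of 5C with WT asked whether an excess of *Mir483* altered imprinted growth regulators beyond its own domain. By edgeR's quasi-likelihood test with Benjamini-Hochberg adjustment over 16784 genes, 0 of the 10 members were called (adjusted p under 0.05 and fold change over 1.5), where 0.00% of all genes tested were called. The smallest adjusted p by this test was 0.1695, that of *Mir483*, so the edited gene was not called either despite a log2 fold change of 3.05. The lack of a called member therefore does not show that no member changed. The study reported differentially expressed genes in these embryos at the same thresholds, and the cause of the unlike counts was not tested. DESeq2 called 11 genes and limma-voom 0, with 0 members among them. At an unadjusted p under 0.05 there were 2 members, *Peg10* lower and *Snrpn* higher in 5C, beside 1011 genes or 6.02% of all genes tested (3.47% lower, 2.55% higher). The 3 libraries of each genotype did not overlap for 1 member, *Snrpn*, beside 11.4% of all genes (5.10% lower, 6.26% higher). The 9 paternally expressed members had a median log2 fold change of -0.02, and all genes tested had a median of -0.0024. Of the 9, 5 were below 0 and 4 above 0, where 50.7% of all genes tested were below 0, and the range was -0.50 to 0.26.

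**Figure D2:**
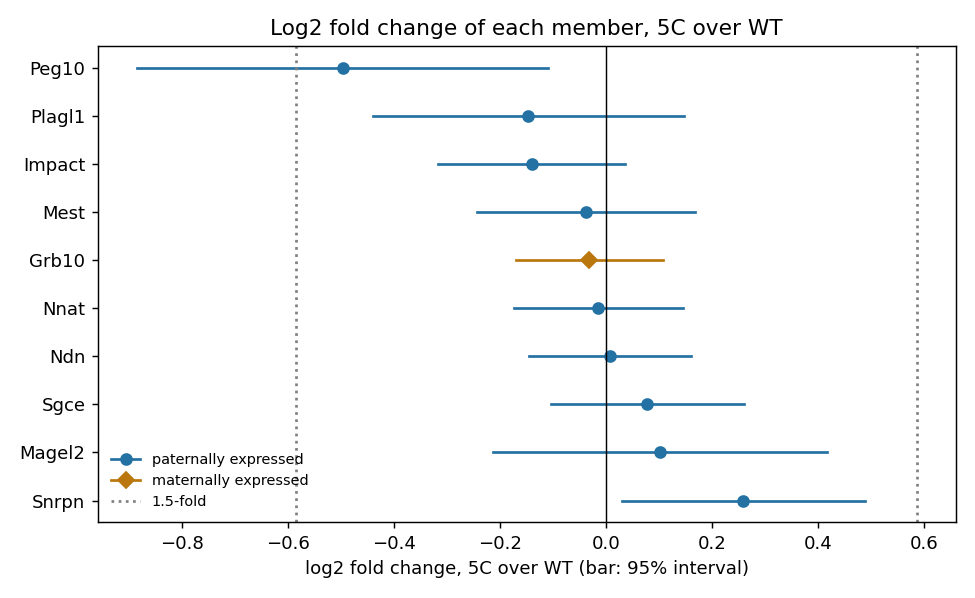
Log2 fold change of each member in 5C over WT with its 95% interval, blue circles for paternally and a brown diamond for maternally expressed members, dotted lines at 1.5-fold. The interval of *Peg10* lies below 0 and that of *Snrpn* above 0, and the other 8 intervals include 0.

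Growth signalling and its transcriptional control came first. GRB10 is an adaptor that binds the insulin and IGF1 receptors and restrains fetal growth. *Grb10* (ENSMUSG00000020176; chromosome 11, 11930508 to 12038683, minus strand) stood at 1722, 1838 and 1785 CPM in the WT libraries against 1724, 1720 and 1782 CPM in the 5C libraries. The genotypes overlapped, and the coefficient of variation was 3.25% in WT and 2.0% in 5C, the lowest of the members in 5C. WT averaged 1782 ± 57.9 and 5C averaged 1742 ± 34.8 CPM (SD, n = 3 per genotype). In 5C over WT the log2 fold change was -0.03 (standard error, SE, 0.06), with a 95% interval from -0.17 to 0.11 and an adjusted p of 0.921 by the quasi-likelihood test of edgeR. A change of *Grb10* by 1.5-fold, or 0.585 on the log2 scale, was thus outside the interval.

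*Plagl1* (ENSMUSG00000019817; chromosome 10, 13060504 to 13131694) stood at 165, 107.5 and 141 CPM in the WT libraries against 126, 128 and 121 CPM in the 5C libraries. WT replicates 1 and 3 lay above every 5C library and WT replicate 2 lay below every 5C library. Between genotypes the log2 fold change was -0.15 with an SE of 0.13 and an adjusted p of 0.821 by the quasi-likelihood test of edgeR. Without WT replicate 1 it was 0.01, and without WT replicate 2 it was -0.30, so its direction rested on WT replicate 1.

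*Peg10* and *Sgce* lie head to head on chromosome 6 with 98 bases between their annotated starts, and share an imprinting control region. PEG10 is a protein derived from a retrotransposon that is required for the placenta, and epsilon-sarcoglycan, the product of *Sgce*, is a membrane glycoprotein of the dystrophin complex. *Peg10* (ENSMUSG00000092035; 4747306 to 4760517, plus strand) stood at 478, 269.9 and 436 CPM in the WT libraries against 272, 271 and 296 CPM in the 5C libraries. WT replicates 1 and 3 stood above all 5C libraries, while WT replicate 2 lay just below the lowest of them, so that the genotypes overlapped. WT averaged 395 ± 110 and 5C averaged 279.5 ± 14.2 CPM (SD, n = 3 per genotype), and the coefficient of variation was 27.9% in WT against 5.07% in 5C. Its log2 fold change was -0.50 with an SE of 0.17 and a 95% interval from -0.89 to -0.11, the lowest of the 10 members. The unadjusted p was 0.0173, which ranked 291 of 16784 genes, and 0.781 was the adjusted p by the quasi-likelihood test of edgeR.

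The value of *Peg10* depended on which WT libraries were used. Without WT replicate 2 the log2 fold change was -0.71, with 8.45e-06 as the unadjusted p and an adjusted p of 0.0735 by the quasi-likelihood test of edgeR. Without WT replicate 1 it was -0.33, with an unadjusted p of 0.0661. Without replicate 2 of both genotypes, the pools low in *Ddx3y*, it was -0.69, with an adjusted p of 0.581. *Peg10* was below 0 in all 6 fits that left out 1 library. Yolk sac markers summed to 5801, 170.5 and 404 CPM in the WT libraries and to 115, 118 and 1101 CPM in the 5C libraries. The 3 libraries with the most yolk sac signal, WT replicates 1 and 3 and 5C replicate 3, were also the 3 with the most *Peg10*. The orders differed otherwise: 5C replicate 3 had more yolk sac signal but less *Peg10* than WT replicate 3. WT replicate 2, lowest in *Peg10*, had more yolk sac signal than 5C replicates 1 and 2. All 6 yolk sac markers had log2 fold changes below 0, with a median of -2.35. The genotypes overlapped for each of these markers, and the part of the markers in the difference of *Peg10* was not tested.

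*Sgce* (ENSMUSG00000004631; 4674350 to 4747207, minus strand) stood at 49.8, 47.1 and 50.6 CPM in the WT libraries against 48.3, 51.2 and 56.0 CPM in the 5C libraries. It did not share the high values of *Peg10* in WT replicates 1 and 3. Its log2 fold change was 0.08 with a 95% interval from -0.11 to 0.26. The ratio of *Peg10* to *Sgce* counts was 9.59, 5.73 and 8.62 in WT and 5.63, 5.28 and 5.28 in 5C. Every 5C library had a lower ratio than every WT library, although WT replicate 2 was close to 5C replicate 1. Among single genes, 11.4% of all genes tested did not overlap between genotypes. The ratio largely restates the difference of *Peg10*, whose own levels overlapped between genotypes, and is not a separate result. The difference of the 2 genes' changes was not tested.

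The edited host gene shared its lowest library with *Peg10*. *Igf2*, the paternally expressed fetal growth factor, stood at 16.9, 8.41 and 17.1 CPM in the WT libraries against 10.48, 10.1 and 9.75 CPM in the 5C libraries. Its WT replicate 2 was the lowest of the 6 libraries, as it was for *Plagl1*, *Mest* and *Peg10*. The level of *Igf2* is uncertain, since it shares 3596 of its 5723 exon bases with the overlapping same-strand gene *Gm49394*. Its log2 fold change of -0.48 depended on the WT libraries used, since it was -0.75 without WT replicate 2, -0.28 without WT replicate 1 and -0.35 without WT replicate 3. With all 6 libraries its unadjusted p was 0.0732 and its adjusted p 0.781 by the quasi-likelihood test of edgeR. The lowest adjusted p by the same test among the fits that left out 1 library was 0.216. The study's own edgeR analysis of these embryos did call *Igf2* lower in 5C, at the thresholds used here. It also reported less IGF2 protein in 5C embryos by mass spectrometry at the stage used here. In separate embryos of a later stage it reported less *Igf2* mRNA by RT-qPCR and less IGF2 protein by western blot. The cause of the unlike calls was not tested.

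**Figure D3:**
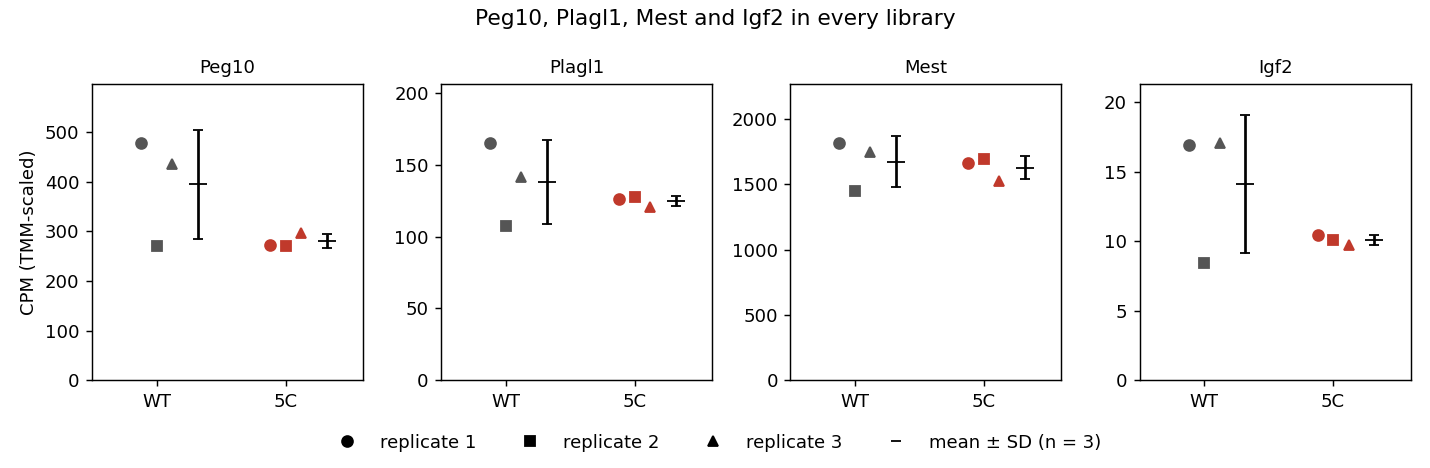
CPM of *Peg10*, *Plagl1*, *Mest* and *Igf2* in every library, WT in grey and 5C in red, with circles, squares and triangles for replicates 1, 2 and 3 and bars for mean ± SD (n = 3). In each panel the square of WT replicate 2 lies lowest, at 269.9 CPM for *Peg10* and 8.41 CPM for *Igf2*.

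*Mest*, which encodes a hydrolase-fold protein abundant in mesoderm, was examined next. *Mest* (ENSMUSG00000051855; chromosome 6, 30723547 to 30748465) stood at 1817, 1451 and 1748 CPM in the WT libraries against 1665, 1691 and 1526 CPM in the 5C libraries. All 5C libraries lay between the lowest and the highest WT library. In 5C over WT the log2 fold change was -0.04 with a 95% interval from -0.24 to 0.17 and an adjusted p of 0.942 by the quasi-likelihood test of edgeR. The count ratio of *Mest* to *Grb10*, the most abundant paternally expressed member over the maternally expressed one, was 0.941 ± 0.137 in WT and 0.935 ± 0.0688 in 5C (SD, n = 3 per genotype).

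*Ndn*, *Magel2* and *Snrpn* belong to the imprinted cluster on chromosome 7 whose human counterpart is affected in Prader-Willi syndrome. NDN and MAGEL2 are MAGE family proteins important in neurons, and *Snrpn* encodes a core protein of spliceosomal particles. *Snrpn* (ENSMUSG00000102252; 59982495 to 60140219, minus strand) stood at 24.8, 23.3 and 22.5 CPM in the WT libraries against 25.3, 29.0 and 30.4 CPM in the 5C libraries. The genotypes did not overlap, with every 5C library the higher and WT replicate 1 and 5C replicate 1 closest to each other. WT averaged 23.5 ± 1.18 and 5C averaged 28.2 ± 2.62 CPM (SD, n = 3 per genotype). Its log2 fold change of 0.26 (SE 0.10) had 0.0312 as its unadjusted p and an adjusted p of 0.781 by the quasi-likelihood test of edgeR. It stayed between 0.20 and 0.33 in the 6 fits that left out 1 library. The unadjusted p in those fits ran from 0.0109 to 0.107.

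*Ndn* (ENSMUSG00000033585; 62346569 to 62350262) stood at 114, 112 and 110.1 CPM in the WT libraries against 112, 119.9 and 106 CPM in the 5C libraries. Its WT values were the closest together of all members, with a coefficient of variation of 1.97%, and the 5C values lay on both sides of them. Between genotypes the log2 fold change was 0.01 with a 95% interval from -0.15 to 0.16. *Magel2* (ENSMUSG00000056972; 62377010 to 62381640), the least abundant member, had 181, 105 and 70 counts in WT and 187, 126 and 133 counts in 5C. Its log2 fold change was 0.10 with a 95% interval from -0.21 to 0.42, the widest of the 3 members in this cluster. *Mkrn3* and *Peg12*, paternally expressed neighbours in the cluster, had log2 fold changes of -0.0028 and -0.04.

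*Nnat* encodes neuronatin, a small membrane proteolipid of neural and endocrine tissue. *Nnat* (ENSMUSG00000067786; chromosome 2, 157560078 to 157562522) stood at 529.5, 549 and 480.5 CPM in the WT libraries against 532, 510.1 and 500.5 CPM in the 5C libraries. The 5C values all lay inside the WT range. Its log2 fold change was -0.02 with a 95% interval from -0.18 to 0.14. Neural markers, whose part in *Nnat*, *Ndn* and *Magel2* was not tested, summed to 696 to 752 CPM in WT and 698 to 803.5 CPM in 5C, and 4 of 8 did not overlap between genotypes, all higher in 5C, as did 6.26% of all genes.

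IMPACT binds GCN1 and restrains the amino acid sensor kinase GCN2, which is encoded by *Eif2ak4*. *Impact* (ENSMUSG00000024423; chromosome 18, 12955852 to 12992950) stood at 119.9, 116 and 110.2 CPM in the WT libraries against 94.96, 107 and 112 CPM in the 5C libraries. The 2 lowest libraries were 5C replicates 1 and 2, while 5C replicate 3 lay within the WT range. In 5C over WT the log2 fold change was -0.14 with an SE of 0.08, a 95% interval from -0.32 to 0.04 and an adjusted p of 0.781 by the quasi-likelihood test of edgeR. Its partners *Gcn1* and *Eif2ak4* had log2 fold changes of -0.21 and -0.02, with unadjusted p-values of 0.0748 and 0.782. Without 5C replicate 1 the log2 fold change of *Impact* was -0.07, without 5C replicate 3 it was -0.19, and under GC-content offsets it was -0.21.

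**Figure D4:**
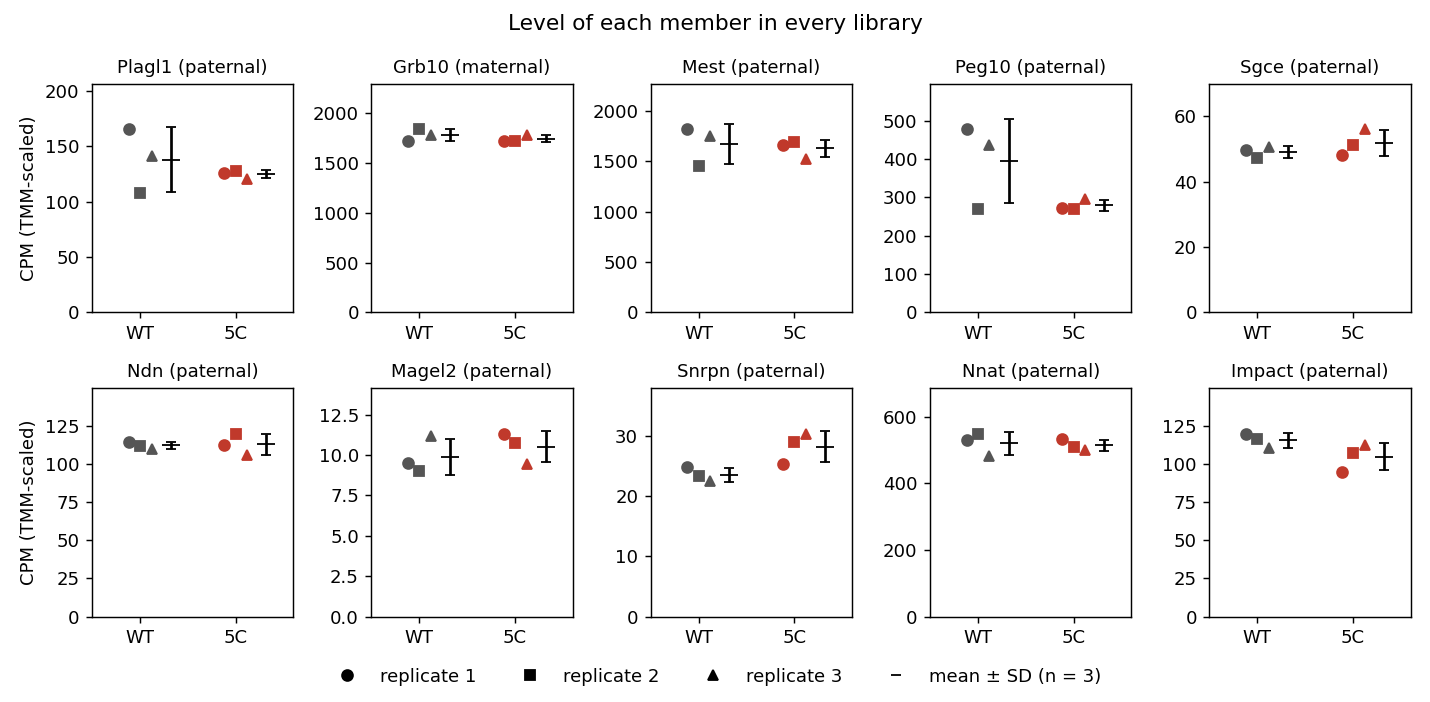
CPM of each of the 10 members in every library, WT in grey and 5C in red, with circles, squares and triangles for replicates 1, 2 and 3 and bars for mean ± SD (n = 3). The genotypes do not overlap for *Snrpn* alone, and *Peg10* has its 2 highest values, 478 and 436 CPM, in WT.

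The paternal and maternal classes were then compared library by library. Relative to the WT mean of each gene, the median paternally expressed member deviated by 0.06, -0.06 and 0.04 in the WT libraries and by 0.0014, 0.02 and -0.06 in the 5C libraries on the log2 CPM scale. *Grb10* deviated by -0.05, 0.05 and 0.0028 in WT and by -0.05, -0.05 and 0.0009 in 5C. WT replicates 1 and 2 had opposite signs in the paternal median and in *Grb10*. The paternal median minus *Grb10* was 0.01 ± 0.11 in WT and 0.02 ± 0.07 in 5C (SD, n = 3 per genotype), so the difference between genotypes was within the spread of the libraries.

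Further imprinted genes outside the 4 domains were taken from lists of 14 paternally and 14 maternally expressed genes. These classes are those of the lists, and expression by allele was not measured in these embryos. Of the paternally expressed ones 12 were tested, with a median log2 fold change of -0.02, 0 called, and 0 lower and 1 higher at an unadjusted p under 0.05, where 3.47% of all genes were lower and 2.55% higher. This was *Nap1l5*, a nucleosome assembly protein gene, at 3.62, 3.26 and 3.35 CPM in the WT libraries against 5.27, 5.46 and 4.13 CPM in the 5C libraries. *Nap1l5* had 0.53 as its log2 fold change (unadjusted p = 0.0191). *Airn*, the antisense RNA that silences *Igf2r* on the paternal copy, had -0.30 as its log2 fold change (unadjusted p = 0.0559), which ran from -0.42 without WT replicate 1 to -0.18 without WT replicate 3. *Snhg14*, the long RNA that runs on from *Snrpn* against *Ube3a*, had 0.35 as its log2 fold change (unadjusted p = 0.117). It ran from 0.18 without WT replicate 1 to 0.56 without WT replicate 3, and was 0.19 under GC-content offsets.

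Of the maternally expressed genes 13 were tested, with the same rounded median of -0.02, 0 called, and 2 lower and 2 higher at an unadjusted p under 0.05, beside the same 3.47% and 2.55% of all genes. *Igf2r*, which clears IGF2 to the lysosome, stood at 473, 436 and 544 CPM in the WT libraries against 426, 373 and 379 CPM in the 5C libraries, with -0.30 as its log2 fold change (unadjusted p = 0.00921). *Kcnk9*, a potassium channel gene, rested on 4 to 14 counts per WT library and 15 to 23 per 5C library and had 0.67 as its log2 fold change (unadjusted p = 0.0452). The other 2 lie beside members. *Nnat* sits inside *Blcap*, which stood at 47.2, 46.02 and 45.3 CPM in the WT libraries against 42.8, 36.2 and 34.4 CPM in the 5C libraries. *Blcap* had -0.29 as its log2 fold change (unadjusted p = 0.0135), and *Nnat* in the same libraries had -0.02. The count ratio of *Nnat* to *Blcap* was 11.3 ± 0.661 in WT and 13.7 ± 1.13 in 5C (SD, n = 3 per genotype). This ratio largely restates the difference of *Blcap*, a gene named for its unadjusted p, and is not a separate result. *Copg2* runs against *Mest* and shares 912 bases of exon with it on the opposite strand. It stood at 126, 141 and 128 CPM in the WT libraries against 146, 145 and 148 CPM in the 5C libraries, with 0.15 as its log2 fold change (unadjusted p = 0.0432). The value of *Copg2* was 0.12 without WT replicate 1 and 0.11 under GC-content offsets, the latter with an unadjusted p of 0.0818 by the quasi-likelihood test. Which strand was counted was not stated, so reads of *Mest* and *Copg2* in the shared bases may not be told apart. Of the tested genes in both lists, 22 had a 3′ UTR in the search, 4 of which held AGGAGTG (*Zrsr1*, *Zdbf2*, *Commd1* and *Copg2*) with log2 fold changes of 0.05, -0.06, -0.0099 and 0.15, and 0 held CCCGTCT.

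Relatives and partners that are not imprinted were listed as well, and 13 of 15 were tested, with a median log2 fold change of -0.07 and 0 called. The 2 relatives of *Plagl1* differed in sign. *Plag1*, a growth-promoting zinc finger gene, stood at 67.1, 73.4 and 76.1 CPM in the WT libraries against 79.0, 80.6 and 86.6 CPM in the 5C libraries, with 0.19 as its log2 fold change (unadjusted p = 0.0334). The value of *Plag1* was 0.14 without WT replicate 1 and 0.12 under GC-content offsets, the latter with an unadjusted p of 0.0851 by the quasi-likelihood test. *Plagl2* stood at 50.4, 40.6 and 56.6 CPM in the WT libraries against 43.0, 38.4 and 34.4 CPM in the 5C libraries, with -0.34 as its log2 fold change (unadjusted p = 0.0244). *Sgcb* and *Sgcd*, the other sarcoglycan genes above 10 CPM, had -0.07 and 0.0074, and *Snrpb*, the paralog of *Snrpn*, had -0.07.

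The genes with the pattern most like *Grb10* over the 6 libraries, among 10340 genes with a mean of at least 10 CPM, were *Ppp2r5e*, *Umps* and *Gyg*. Pearson's r of their log2 CPM with *Grb10* was 0.996, 0.994 and 0.990. Most like the mean of the standardised paternally expressed members were *Foxp1*, *Tgfbr2* and *Mab21l2*, with r of 0.998, 0.986 and 0.986. These 3 were all lowest in WT replicate 2 and highest in WT replicate 1. The 6 points share library, depth and composition, and such values are the highest of many genes, so they describe these libraries only.

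**Figure D5:**
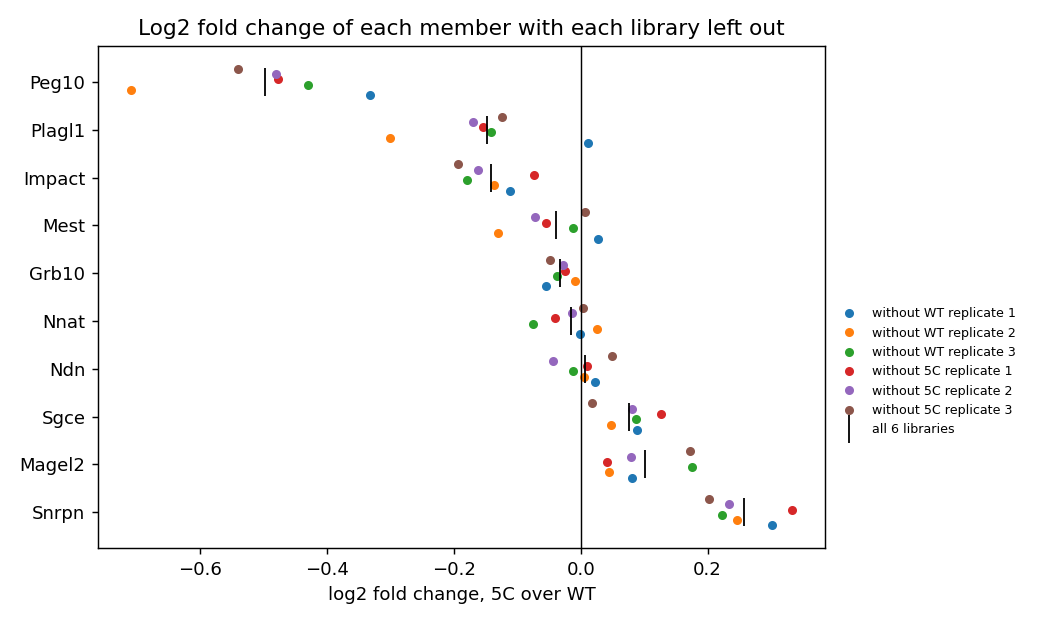
Log2 fold change of each member in 5C over WT when each of the 6 libraries was left out in turn (coloured points) and with all 6 (black ticks). *Peg10* spans -0.71 to -0.33 and *Plagl1* -0.30 to 0.01, with the extremes at WT replicates 2 and 1, and *Grb10* spans -0.06 to -0.0085.

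Finally, the promoters were read for CG pairs, the sites at which DNA is methylated, although methylation was not measured here. RefSeq promoter windows of 300 bases on GRCm38.p6 matched 7 of the 10 members, with 13 windows. CG was counted on one strand, which equals the count on the other, and the median over 32851 windows was 7. *Plagl1* had 26, a count reached by 16.9% of windows, and the 2 *Grb10* windows had 45 and 9, reached by 1.93% and 45.8%. The window of *Nnat* had 17, those of *Mest* 8, 17 and 17, *Ndn* 11 and *Magel2* 10, while the 4 of *Snrpn* had 2 to 7.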

How the data were processed

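Poly(A)-selected, stranded RNA-seq libraries of whole E10.5 embryos were analysed, 3 WT and 3 5C. The authors aligned single-end reads with STAR to GRCm38 and deposited raw counts per Ensembl gene, without normalization or filter. The strand counted is not given in the sources used here. Genotype and replicate number came from the sample titles. Nothing states that replicates are separate litters, so p-values measure the spread between these pools. No pair of libraries of one genotype agreed within sampling noise (chi-square per gene at least 5.77). A count of 0 allows up to 3 counts, or 0.157 to 0.472 counts per 1e6 of the unscaled library totals, for counting error only.

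Genes kept by filterByExpr were scaled by TMM and tested with edgeR 4.0.16 (quasi-likelihood F-test, legacy form, two-sided, R 4.3.3), adjusted by Benjamini-Hochberg over all genes tested. Intervals are log2 fold change ± SE times the t quantile at 95%. Log2 CPM used a prior count of 2. Alternatives used DESeq2 1.42.0 and limma 3.58.1. The methods were tested on simulated data, in which the changes were larger than those of the members. That test does not show whether changes as small as those of the members would be called. Symbols, positions and 3′ UTRs came from GENCODE M21 on GRCm38, which named 55141 of 55401 genes.

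The members and all lists were chosen with earlier results of these data known. Named genes were the 10 members, *Mir483* and *Igf2*, list genes with an unadjusted p under 0.05 or among the 3 smallest of their list, and the 3 genes most like each pattern. *Ddx3y*, *Mkrn3*, *Peg12*, *Eif2ak4*, *Sgcb*, *Sgcd*, *Snrpb*, *Snurf*, *Gm38393* and the genes with seed matches were added after their values were seen.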

Additional observations from a re-analysis of the deposited data

How the results depend on the processing

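The count of differentially expressed genes, 0 in edgeR's quasi-likelihood test with 1011 genes at an unadjusted p under 0.05, was 319 without a count filter, 11 with DESeq2 and 3 with robust moderation. It was 0 with limma-voom, both other scalings, a minimum of 10 counts and GC-content offsets, and from 0 to 1 when single libraries were omitted. The count of members called was 0 in every setting run. Without a count filter *Peg10* reached an adjusted p of 2.23e-06 but stayed under 1.5-fold, and with robust moderation its unadjusted p was 0.0912. *Mir483* passed the threshold without a count filter (log2 fold change 3.07), with DESeq2 (3.09), with robust moderation (3.05) and without 5C replicate 3. The causes were not tested.

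The median of the paternally expressed members and its difference from *Grb10* moved by less than 1 SD of the libraries in every setting, and across fits without 1 library they went from -0.04 to 0.02 and from -0.02 to 0.08. Members near 0 changed sign. *Nnat* was 0.0012 with library size alone, 0.0389 under GC-content offsets and 0.0412 when the replicate block was added to them. *Ndn* was -0.0319 and -0.0318, and *Sgce* -0.0254 and -0.0262, in those last 2 settings. Without replicate 2 of both genotypes *Ndn* was -0.0416 and *Nnat* 0.0306. Across fits without 1 library *Plagl1* went from -0.30 to 0.0107, *Mest* from -0.13 to 0.0267, *Ndn* from -0.0435 to 0.0495 and *Nnat* from -0.0752 to 0.0262. *Impact* was -0.21 under GC-content offsets (unadjusted p 0.0127) and -0.21 with the replicate block added to them (p 0.0392). Without 5C replicate 3 it was -0.19 (p 0.0465), all by the quasi-likelihood test of edgeR. In every other setting its unadjusted p was above 0.05. Transcript GC content and log2 fold change had a Spearman rho of -0.313 across 16770 genes, which are not independent replicates.

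The sample titles do not say that the replicate numbers pair the samples. Deviations of same-numbered libraries correlated at -0.174, 0.202 and -0.166. With 3 libraries per genotype, these values cannot decide whether same-numbered pools share a litter or batch. A replicate block gave 0 differentially expressed genes and 782 below an unadjusted p of 0.05. Under it *Peg10* was -0.46 (p 0.0134), *Snrpn* 0.25 (p 0.0585), the paternal median -0.01 and its difference from *Grb10* 0.02. *Magel2* had the fewest counts of the members, from 70 in a library.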
